A study of Homo sapiens with 9 samples.

Results

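Genes of the Wnt pathway were followed in Cal-27, an established line of human tongue squamous carcinoma cells labelled wild type, after exposure to exosomes. The 10 members were taken from the deposited table by symbol: the ligands WNT4, WNT7A, WNT7B and WNT10A, the receptor FZD6 and its co-receptor LRP6, the receptor-removing ligase RNF43, the secreted antagonist DKK1, the nuclear factor TCF7L2 and the feedback gene AXIN2. All 10 were among the 16366 genes listed, and 9 of them were among the 12470 genes with enough reads to test. Each of 3 groups held 3 RNA-seq libraries: cells co-cultured for 48 h with exosomes of CAF (the usual short name of cancer-associated fibroblasts), cells co-cultured for 48 h with hOMF exosomes (also written hMOF, and not spelled out in the labels), and a control group named Normal Control. All groups shared the same line and medium, and the 48 h is given for the exosome groups only. The exosome donors were not described further in the labels, and no exosome dose or vehicle was stated there. The labels call the 3 samples of a group replicates but do not say that each was a culture of its own, so every p-value here reflects the spread among these particular samples and that spread could be technical.

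Wnt proteins are secreted lipid-modified ligands that bind a Frizzled receptor together with the co-receptor LRP5 or LRP6. Receptor engagement halts the complex of AXIN, APC and GSK3 that marks beta-catenin for destruction, and beta-catenin then joins TCF and LEF factors at target genes. Several targets feed back on the pathway: AXIN2 rebuilds the destruction complex, RNF43 and ZNRF3 remove Frizzled receptors from the surface, and DKK1 blocks LRP5 and LRP6, more tightly in the presence of the Kremen receptors. In squamous epithelium, WNT7A, WNT7B, WNT10A and WNT4 are among the ligands made by the keratinocytes themselves.

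Libraries held 11185672 to 12779101 expected counts over all genes. Squamous markers were present in every library: all 12 were tested, and their summed level was 5740 to 7350 CPM (counts scaled to a common library size) in controls, 6736 to 7500 with hOMF exosomes and 7845 to 8024 with CAF exosomes. Of the 12, 5 were called higher with CAF exosomes (41.7%) and 2 with hOMF exosomes (16.7%), where 9.51% and 11.8% of all tested genes were called higher. Between the exosome groups 0 of the 12 were called. The fibroblast list had 11 of 12 genes in the table and 6 tested, and its sums were 206.1 to 248.9, 225.9 to 253.1 and 241.1 to 254.8 CPM in the same order. FBLN1 alone gave a mean of 179.7 CPM in controls, whereas COL3A1, DCN, FAP, POSTN and THY1 were at 0 to 2 counts in every library, and LUM and ACTA2 were called higher with either exosome. The endothelial list had 3 of 5 genes in the table, with sums of 21.73 to 31.26, 17.57 to 20.91 and 17.39 to 19.92 CPM. CDH5 was called lower with either exosome (log2 fold change -0.69 with CAF and -0.66 with hOMF exosomes). PECAM1 (-1.07 and -0.62) and VWF, which went the other way (0.73 and 0.70), were not called. The leukocyte list had 5 of 7 genes in the table, with sums of 16.82 to 40.52, 14.45 to 16.66 and 15.27 to 17.87 CPM. CORO1A was called lower with either exosome, but its groups overlapped and its controls were widely spread (8.34 ± 7.66 CPM, SD, n = 3). CSF1R was called lower with hOMF exosomes only. CD14 was not called and went the other way (log2 fold change 0.33 with CAF and 0.37 with hOMF exosomes). Control replicate 3 stood apart: PTPRC, the pan-leukocyte surface marker, had 94 counts there and 0 or 1 in each of the other 8 libraries. The part of any of these marker differences in the results below was not tested, and each member call is also given without control replicate 3.

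DKK1 and WNT7B fell and WNT4 rose with CAF exosomes, and the same 3 members were called in the same directions with hOMF exosomes. A call here is a Benjamini-Hochberg adjusted p under 0.05 in edgeR's quasi-likelihood test across all tested genes. With CAF exosomes 3 of 9 tested members were called (1 higher, 2 lower), where 18.2% of all tested genes were called (9.51% higher, 8.64% lower). With hOMF exosomes 3 of 9 were again called (1 higher, 2 lower), against 23.2% of all tested genes (11.8% higher, 11.4% lower). The median log2 fold change of the 9 members was 0.10 with CAF exosomes and 0.04 with hOMF exosomes, and that of all tested genes was -0.01 and 0.00. Both comparisons use the same 3 control libraries, so their values are given side by side and neither is a repeat of the other. Between the exosome groups none of the 9 was called, against 0.016% of all tested genes (0.00802% in each direction).

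Upstream sequences were available for 6 of the 10 members in a RefSeq promoter table of build GRCh38.p14, and those of DKK1 and WNT4 are shown because both genes were called. Each run is the 250 bases before the annotated start, 5′ to 3′ on the gene's strand. The DKK1 window is chr10:52314031-52314280 on the plus strand and lies wholly within an exon of the non-coding antisense gene PRKG1-AS1. The WNT4 window is chr1:22143098-22143347 on the minus strand, in no annotated exon and within the span of a longer WNT4 gene model. Capitals mark a match to CTTTGAT or CTTTGAA, core forms of the TCF/LEF motif, searched on both strands.
DKK1: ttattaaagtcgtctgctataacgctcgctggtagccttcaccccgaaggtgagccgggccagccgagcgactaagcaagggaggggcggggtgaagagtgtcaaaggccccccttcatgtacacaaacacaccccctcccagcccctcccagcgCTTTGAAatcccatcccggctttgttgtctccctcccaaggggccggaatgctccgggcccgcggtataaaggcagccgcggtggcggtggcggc
WNT4: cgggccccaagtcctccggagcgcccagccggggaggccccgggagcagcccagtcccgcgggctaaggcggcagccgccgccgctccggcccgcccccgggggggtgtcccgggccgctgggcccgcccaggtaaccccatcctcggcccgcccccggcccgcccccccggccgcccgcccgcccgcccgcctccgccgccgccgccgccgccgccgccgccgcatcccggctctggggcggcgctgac
DKK1 carried CTTTGAA once, beginning 95 bases before the start, and none of the other 5 members' windows held either form. Either form was found in 5.94% of the 35116 windows of the table. The WNT4 window was 86.8% G and C, above 99.8% of all windows, while DKK1 stood at 62.8% and the median window at 58%. A match is a description of letters and not of a bound site.

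The 4 member ligands made up most of the Wnt ligand RNA of Cal-27. In each library they supplied 90.2% to 92% of the summed FPKM (fragments scaled to transcript length and library size) of the 16 WNT genes in the table. WNT10A alone supplied 44% to 50.4%, WNT7A 24.7% to 28.2%, WNT7B 10.7% to 19.4% and WNT4 1.88% to 3.61%. Among the other ligands WNT3 had a mean of 4.12 FPKM over the 9 libraries, above that of WNT4 (2.49). The levels of the 4 members on the FPKM scale ran from WNT10A, at a control mean of 41.5, through WNT7A at 23 and WNT7B at 15.3 to WNT4 at 1.87.

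WNT10A, a ligand tied by inherited variants to ectodermal development, differed little between the groups. It stood at 74.18, 77.96 and 71.14 CPM in the controls, 81.72, 72.75 and 71.54 with hOMF exosomes and 72.33, 85.8 and 72.44 with CAF exosomes. One library in each exosome group was high and the rest overlapped the controls. The log2 fold change was 0.05 with CAF exosomes (95% interval -0.13 to 0.22, edgeR adjusted p = 0.734) and 0.02 with hOMF exosomes (-0.16 to 0.20, adjusted p = 0.904). The nearest Wnt gene, WNT6, lies 6130 bases from WNT10A on chromosome 2 on the same strand, and averaged 0.468 FPKM.

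WNT7A, which signals in epithelia and the female reproductive tract, was as level. Its values were 53.18, 60.16 and 58.46 CPM in the controls, 63.24, 54.56 and 55.34 with hOMF exosomes and 59.57, 58.9 and 53.08 with CAF exosomes. The groups overlapped throughout. The interval ran from -0.18 to 0.17 on the log2 scale for CAF exosomes minus control and from -0.17 to 0.19 for hOMF exosomes minus control, so a change above 13.8% or below -11.7% lay outside both intervals.

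WNT7B, the close relative of WNT7A, fell. It stood at 49.18, 56.19 and 65.48 CPM in the controls, at 38.08, 41.53 and 37.3 with hOMF exosomes and at 39.78, 44.69 and 47.23 with CAF exosomes. Every exosome library was below every control, and the controls themselves were the most spread of the groups (56.95 ± 8.18 CPM, SD, n = 3). With hOMF exosomes the change was -0.55 on the log2 scale (SE 0.10, or -31.7%, edgeR adjusted p = 0.00129). With CAF exosomes it was -0.38 (SE 0.10, or -23%, adjusted p = 0.017). The highest control was replicate 3, the library that stood apart in PTPRC counts. Without it WNT7B was -0.44 with hOMF exosomes (adjusted p = 0.00716), and with CAF exosomes it was -0.26 and no longer called (adjusted p = 0.0922). The CAF exosome call was also lost without CAF replicate 1 (-0.31, adjusted p = 0.0703) and in limma on FPKM. The gene lies on the minus strand of chromosome 22 (GRCh38, 45920362 to 45977129), with no exon shared with another annotated gene.

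WNT4, a ligand known for kidney and reproductive tract development, rose from a low level. The controls had 4.182, 4.968 and 4.706 CPM, the hOMF exosome libraries 7.981, 7.082 and 5.121, and the CAF exosome libraries 6.6, 7.405 and 7.093. All 6 exosome libraries lay above all 3 controls, although hOMF replicate 3 was close to the highest control. The log2 fold change was 0.61 with CAF exosomes (SE 0.18, 95% interval 0.23 to 0.98, edgeR adjusted p = 0.0275) and 0.53 with hOMF exosomes (SE 0.18, 0.16 to 0.91, adjusted p = 0.0402). Without control replicate 3 it was 0.62 and 0.55, with adjusted p = 0.0586 and 0.0766, so neither call was kept. The call with CAF exosomes was lost as well without CAF replicate 2 or 3 or control replicate 1 or 2, with adjusted p up to 0.0752. With hOMF exosomes it was lost in 10 of 20 alternatives, among them DESeq2 (adjusted p = 0.0789) and leaving out hOMF replicate 1 (0.39, adjusted p = 0.173) or 2, CAF replicate 3 or any control. WNT4 lies on the minus strand of chromosome 1 (22117305 to 22143969), and 55 of its exon bases overlap an opposite-strand non-coding RNA.

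**Figure D1:**
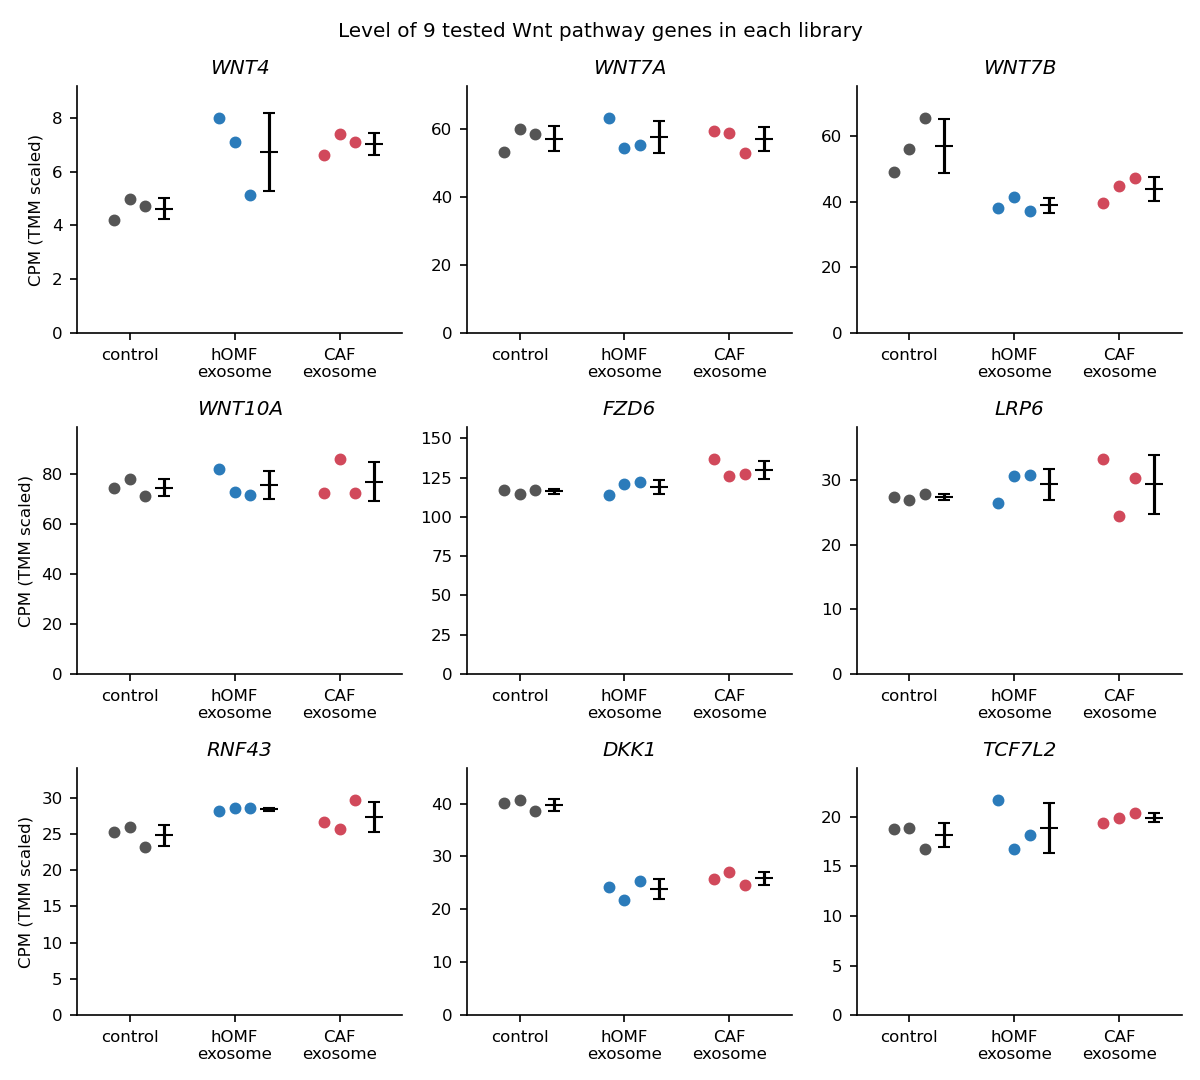
Level of the 9 tested members in each library, as CPM after TMM scaling, with 1 point per library and the group mean ± SD (n = 3) beside the points. The controls of DKK1 (38.52 to 40.65 CPM) and WNT7B lie above all exosome libraries, those of WNT4 lie below them, and WNT7A and WNT10A overlap.

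FZD6 was the main Frizzled transcript. This receptor is best known for planar polarity and for restraining beta-catenin signalling in some cells. It supplied 61.9% to 65.7% of the summed FPKM of the 9 FZD genes in the table. Its levels were 117.1, 114.4 and 117 CPM in the controls, 113.9, 121.2 and 122 with hOMF exosomes and 136.7, 125.8 and 127.2 with CAF exosomes. The CAF exosome libraries were all above the other 6. The log2 fold change with CAF exosomes was 0.16 (95% interval 0.02 to 0.30) and missed the threshold (edgeR adjusted p = 0.103). It passed in limma on log2(FPKM + 1), at 0.25 (adjusted p = 0.0221). With hOMF exosomes FZD6 was at 0.04 (adjusted p = 0.742), and the difference between the exosome groups was 0.13 (-0.01 to 0.27, adjusted p = 0.719).

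LRP6 was the minor co-receptor by RNA. It gave 3.83% to 5.23% of the summed FPKM of LRP5 and LRP6, with LRP5 at a mean of 60.7 FPKM over the libraries. LRP6 stood at 27.45, 27.01 and 27.84 CPM in the controls, 26.54, 30.69 and 30.88 with hOMF exosomes and 33.27, 24.43 and 30.38 with CAF exosomes. The CAF exosome libraries spanned both sides of the controls. Both comparisons gave a log2 fold change of 0.10, with edgeR adjusted p = 0.562 for CAF exosomes and 0.533 for hOMF exosomes.

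RNF43, the membrane ubiquitin ligase that removes Frizzled receptors, gave 71.1% to 76.9% of the summed FPKM of RNF43 and its paralog ZNRF3. It stood at 25.27, 25.93 and 23.13 CPM in the controls, 28.11, 28.5 and 28.51 with hOMF exosomes and 26.58, 25.62 and 29.63 with CAF exosomes. The hOMF exosome libraries were all above the controls, and the CAF exosome libraries overlapped them. Neither the difference with hOMF exosomes (log2 0.20, 95% interval 0.01 to 0.38, edgeR adjusted p = 0.111) nor that with CAF exosomes (0.14, -0.04 to 0.33, adjusted p = 0.278) was called. On chromosome 17 (58352500 to 58417595, minus strand) RNF43 shares exon bases with SUPT4H1 on the same strand and with the antisense gene TSPOAP1-AS1. Its expected counts were whole in every library and so show no division of reads with these genes. Whether reads in the shared bases were given to the right gene cannot be told from the counts.

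DKK1, the secreted LRP5 and LRP6 antagonist, gave the smallest adjusted p of the 9 members in both comparisons with control. It stood at 40.18, 40.65 and 38.52 CPM in the controls, at 24.29, 21.86 and 25.45 with hOMF exosomes and at 25.77, 27.15 and 24.62 with CAF exosomes. The lowest control was well above the highest exosome library, and the spread within each group was small (39.79 ± 1.12, 23.87 ± 1.83 and 25.85 ± 1.27 CPM, SD, n = 3). DKK1 fell by 0.62 on the log2 scale with CAF exosomes (SE 0.08, 95% interval -0.80 to -0.44, edgeR adjusted p = 0.000202), a change of -35%. It fell by 0.73 with hOMF exosomes (SE 0.08, -0.91 to -0.56, adjusted p = 3.41e-05), a change of -39.9%. By p-value it ranked 85 and 59 of the 12470 tested genes. Without control replicate 3 the values were -0.64 (adjusted p = 0.000602) and -0.76 (adjusted p = 9.98e-05). The gene lies on the plus strand of chromosome 10 (52314296 to 52318042), and 212 of its exon bases overlap PRKG1-AS1 on the opposite strand. The libraries were made with strand marking by dUTP, but whether the counting used strand is not stated in the labels, so reads of the pair in those bases cannot be assigned to either.

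KREMEN2 and DKK3, which were listed with DKK1 among the secreted and surface antagonists, rose. KREMEN2, a surface receptor that binds Dickkopf proteins, stood at 17.91, 22.76 and 21.45 CPM in the controls, 49.19, 41.44 and 39.98 with hOMF exosomes and 41.65, 56.6 and 42.31 with CAF exosomes. Every exosome library was above every control, and the log2 fold change was 1.18 with CAF exosomes (SE 0.13, edgeR adjusted p = 4.33e-05) and 1.07 with hOMF exosomes (SE 0.13, adjusted p = 4.94e-05). DKK3, a divergent Dickkopf relative, rose by 0.72 (SE 0.08, adjusted p = 4.33e-05) and 0.58 (SE 0.08, adjusted p = 0.000128). On the FPKM scale DKK1 and DKK3 exchanged places. In the controls DKK1 had 25.6, 25.83 and 24.97 FPKM against 23.31, 23.55 and 22.33 for DKK3, with CAF exosomes 16.87, 17.78 and 15.92 against 35.98, 34.68 and 36.85, and with hOMF exosomes 15.96, 14.62 and 17.02 against 32.29, 33 and 32.8. TPBG, a surface protein that dampens beta-catenin signalling, also rose (0.37 and 0.34, adjusted p = 0.00367 and 0.00436), and KREMEN1, the other Kremen receptor, was not called (0.03 and -0.03, adjusted p = 0.818 and 0.834). Of the 5 tested antagonists, 3 rose and DKK1 fell with either exosome, where 18.2% and 23.2% of all tested genes were called. KREMEN2 and DKK3 kept their calls without control replicate 3 (adjusted p = 0.000191 and 0.000183 with CAF exosomes).

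**Figure D2:**
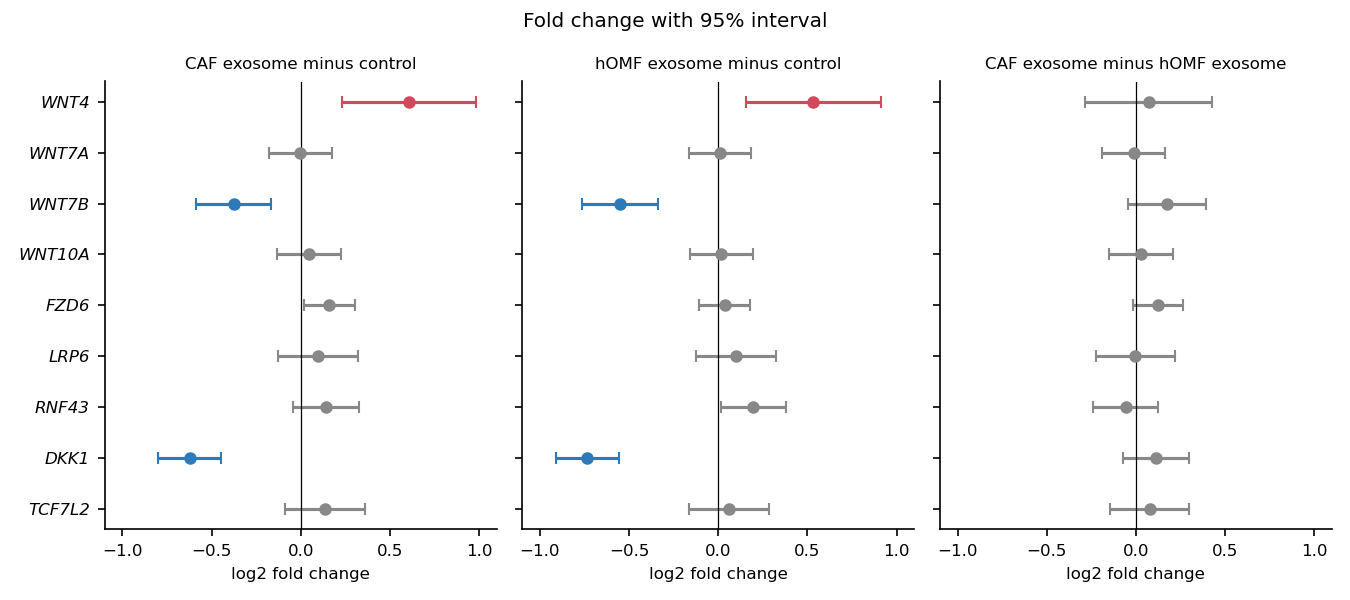
Log2 fold change of the 9 tested members with its 95% interval in each of the 3 comparisons, with calls in colour (red higher, blue lower) and the rest in grey. WNT4, WNT7B and DKK1 are called in both comparisons with control, and none is called between the exosome groups.

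TCF7L2, the nuclear partner of beta-catenin, supplied 65.3% to 71.8% of the summed FPKM of the 4 TCF/LEF genes, while LEF1 had at most 1 count in any library. TCF7L2 stood at 18.82, 18.88 and 16.75 CPM in the controls, 21.69, 16.79 and 18.19 with hOMF exosomes and 19.44, 19.92 and 20.36 with CAF exosomes. The CAF exosome libraries were just above the controls, and the hOMF exosome libraries overlapped them. The log2 fold change was 0.14 with CAF exosomes (95% interval -0.09 to 0.36, edgeR adjusted p = 0.393) and 0.06 with hOMF exosomes (-0.17 to 0.28, adjusted p = 0.729).

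AXIN2, the most widely used readout of beta-catenin transcription, was barely detected. It had 0 counts in 8 libraries and 1 count in control replicate 3, where 3 counts, the limit that a count of 0 allows, correspond to 0.229 to 0.273 CPM across the libraries. That limit covers counting error only. No fold change is given, since every group was under the limit. Its paralog AXIN1, which is not a feedback target, averaged 34 FPKM. The other listed feedback genes varied widely in level. NKD1 had 6 to 21 counts and SP5 6 to 12 counts per library, and NOTUM averaged 0.0333 FPKM, whereas NKD2 averaged 4.53, ZNRF3 2.3 and CCND1 25.5 FPKM.

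**Figure D3:**
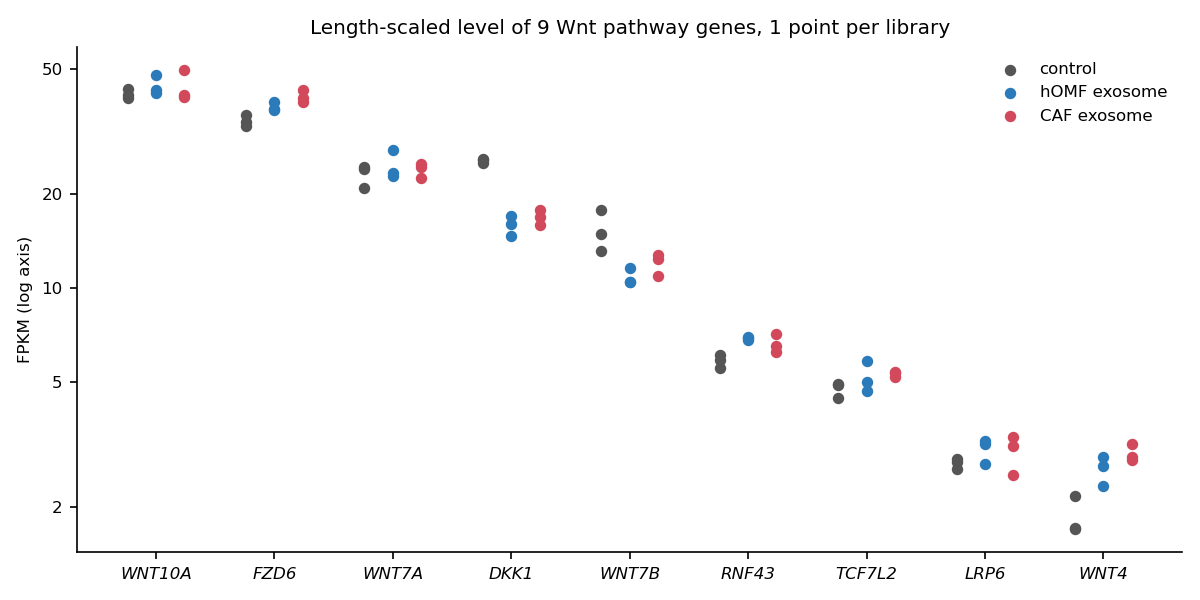
Length-scaled level (FPKM, log axis) of the 9 tested members, 1 point per library, ordered by the mean over the libraries. WNT10A and FZD6 are highest, LRP6 and WNT4 lowest, and DKK1 is above WNT7A in the controls (25.5 and 23) but below it with hOMF exosomes (15.9 and 24.5).

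In the controls the FPKM means ran WNT10A 41.5, FZD6 34.1, DKK1 25.5, WNT7A 23, WNT7B 15.3, RNF43 5.84, TCF7L2 4.76, LRP6 2.76 and WNT4 1.87, and no neighbours had overlapping libraries. With hOMF exosomes DKK1 dropped below WNT7A, and LRP6 (3.07) overlapped WNT4 (2.65). With CAF exosomes the order was the same as with hOMF exosomes, WNT10A (43.8) and FZD6 (40.7) overlapped, and so did LRP6 (3.01) and WNT4 (2.97).

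No member was called between CAF and hOMF exosomes. In edgeR's test of CAF minus hOMF exosomes 0 of 9 members were called and 0 had an unadjusted p under 0.05, and DESeq2 called 0 of the 3 to which it gave an adjusted p. The intervals bound what could have been missed. DKK1 differed by 0.11 (95% interval -0.07 to 0.30, edgeR adjusted p = 0.83), WNT7B by 0.17 (-0.04 to 0.39, adjusted p = 0.743) and WNT4 by 0.07 (-0.28 to 0.43, adjusted p = 0.967). The remaining 6 had intervals within -0.24 and 0.30 on the log2 scale. These p-values do not show that the exosomes act alike on these genes. They were set in a comparison in which 2 of 12470 genes were called in all and 947 had an unadjusted p under 0.05.

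Beyond the members, 116 further Wnt genes were listed by role, of which 102 were in the table and 74 were tested. With CAF exosomes 9 of the 74 rose and 6 fell, or 20.3%, and with hOMF exosomes 9 rose and 7 fell, or 21.6%. Both shares are near those of all tested genes, 18.2% and 23.2%. In the comparison of the exosome groups edgeR called 0 of the 74 and 3 had an unadjusted p under 0.05. Leaving out single libraries moved the counts to between 6 and 16 with CAF exosomes (8 without control replicate 3, 7 without control replicate 2, 6 without CAF replicate 1, 8 without CAF replicate 3) and to between 9 and 17 with hOMF exosomes (11 without control replicate 3, 9 without control replicate 2 and 9 without hOMF replicate 2).

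On the ligand and receptor side, members included, 2 of 9 tested ligands were called with CAF exosomes and 3 with hOMF exosomes, the third being WNT2B. These are 22.2% and 33.3% of the ligands, against 18.2% and 23.2% of all tested genes. WNT2B rose by 1.06 with hOMF exosomes (edgeR adjusted p = 0.00701) from a mean of 0.35 FPKM in the controls. WLS, the carrier that brings Wnt proteins to the surface, rose with CAF exosomes (0.26, adjusted p = 0.0293). It was 1 of 4 tested genes of ligand release and removal, or 25%, and 0 of the 4 were called with hOMF exosomes. Of 11 tested receptors PTK7, a co-receptor of the planar polarity branch, rose with both (0.39 and 0.31, adjusted p = 0.00252 and 0.00661). The other 10 were not called with either exosome, so 9.09% of the receptors were called in each comparison. The 3 tested genes of the R-spondin axis, RNF43, ZNRF3 and LGR4, were not called. In the planar polarity branch 8 genes were tested, and 3 were called with CAF exosomes and 2 with hOMF exosomes. These are 37.5% and 25%, against 18.2% and 23.2% of all tested genes. VANGL2 rose with both (0.52 and 0.49), CELSR2 rose with CAF exosomes (0.39) and the formin DAAM1 fell with both (-0.35 and -0.35). The VANGL2 calls were lost in 5 of 20 alternative analyses each, and the CAF exosome calls of CELSR2 and WLS in 4 of 20 each.

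Of 21 tested genes of the cytoplasmic relay and destruction complex, 1 was called with CAF exosomes (4.76%, against 18.2% of all tested genes) and 3 with hOMF exosomes (14.3%, against 23.2%). The summed level of the list was 1971 to 2037 CPM in the controls, 1878 to 1910 with hOMF exosomes and 1858 to 1927 with CAF exosomes. Such sums weigh the most abundant genes most, and they were neither tested nor set beside sums of other genes. Of the 21 genes, 7 had a log2 fold change above 0 with CAF exosomes and 10 with hOMF exosomes. The receptor list had sums of 701.5 to 742.7, 768.3 to 788.5 and 783.1 to 825.2 CPM in the same order. The antagonist list had sums of 419 to 474.7, 522.7 to 577.3 and 572.9 to 583.1 CPM, of which TPBG alone had means of 289.8, 367.6 and 374.9. GSK3A, a kinase of the complex, fell with both (-0.33 and -0.38, edgeR adjusted p = 0.0118 and 0.00385). With hOMF exosomes DVL2, the relay from Frizzled, rose by 0.30 (adjusted p = 0.00572) and the kinase gene CSNK1E fell by 0.23 (adjusted p = 0.0412). CTNNB1, which encodes beta-catenin, had 215.7 ± 13.9 CPM in the controls, 182.3 ± 22.7 with hOMF exosomes and 184.3 ± 10.9 with CAF exosomes (SD, n = 3), and was not called (-0.24, adjusted p = 0.0564, and -0.23, adjusted p = 0.0826). GSK3B and APC were not called either and averaged 8.76 and 2.74 FPKM. Among 14 tested nuclear factors 2 were called in each comparison with control (14.3%, against 18.2% and 23.2% of all tested genes). The coactivator BCL9L fell with both (-0.24 and -0.22), and the corepressor TLE4 fell with CAF exosomes (-0.29, adjusted p = 0.05 after rounding). CTNNBIP1, which keeps beta-catenin from TCF factors, rose with hOMF exosomes (0.20). The CAF exosome call of TLE4 was lost in 18 of 20 alternative analyses, that of DAAM1 in 15 and that of BCL9L in 13. The hOMF exosome calls of CSNK1E, BCL9L and DAAM1 were lost in 12 of 20 each, that of SOX9 in 11 and that of CTNNBIP1 in 7.

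Of 14 tested feedback and direct targets, DKK1 and RNF43 included, 2 rose and 3 fell with CAF exosomes, and 1 rose and 4 fell with hOMF exosomes. That is 35.7% of the list in each comparison, against 18.2% and 23.2% of all tested genes. MYC, the growth regulator, stood at 292.4, 343.8 and 373.1 CPM in the controls, 206.2, 204.3 and 201.9 with hOMF exosomes and 219.1, 268.5 and 247.4 with CAF exosomes. All exosome libraries were below the controls, and MYC fell by 0.46 with CAF exosomes (edgeR adjusted p = 0.00312) and by 0.72 with hOMF exosomes (adjusted p = 7.28e-05). CCND1, the cell cycle gene cyclin D1, fell with both (-0.28 and -0.32), and the Notch ligand JAG1 rose with both (0.27 and 0.25). EPHB3 rose with CAF exosomes (0.71, adjusted p = 0.0381) and SOX9 fell with hOMF exosomes (-0.46, adjusted p = 0.0365). EPHB3 had a mean of only 2.40 CPM in the controls, and its call was lost in 7 of 19 alternative analyses, DESeq2 among them. Whether a gene called with one exosome and not the other differed between them was tested in the comparison of the exosome groups, where none was called. These genes have many regulators besides beta-catenin. NKD2 was at 18.74 CPM in control replicate 3 and at 6.546 and 6.504 in the other controls.

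**Figure D4:**
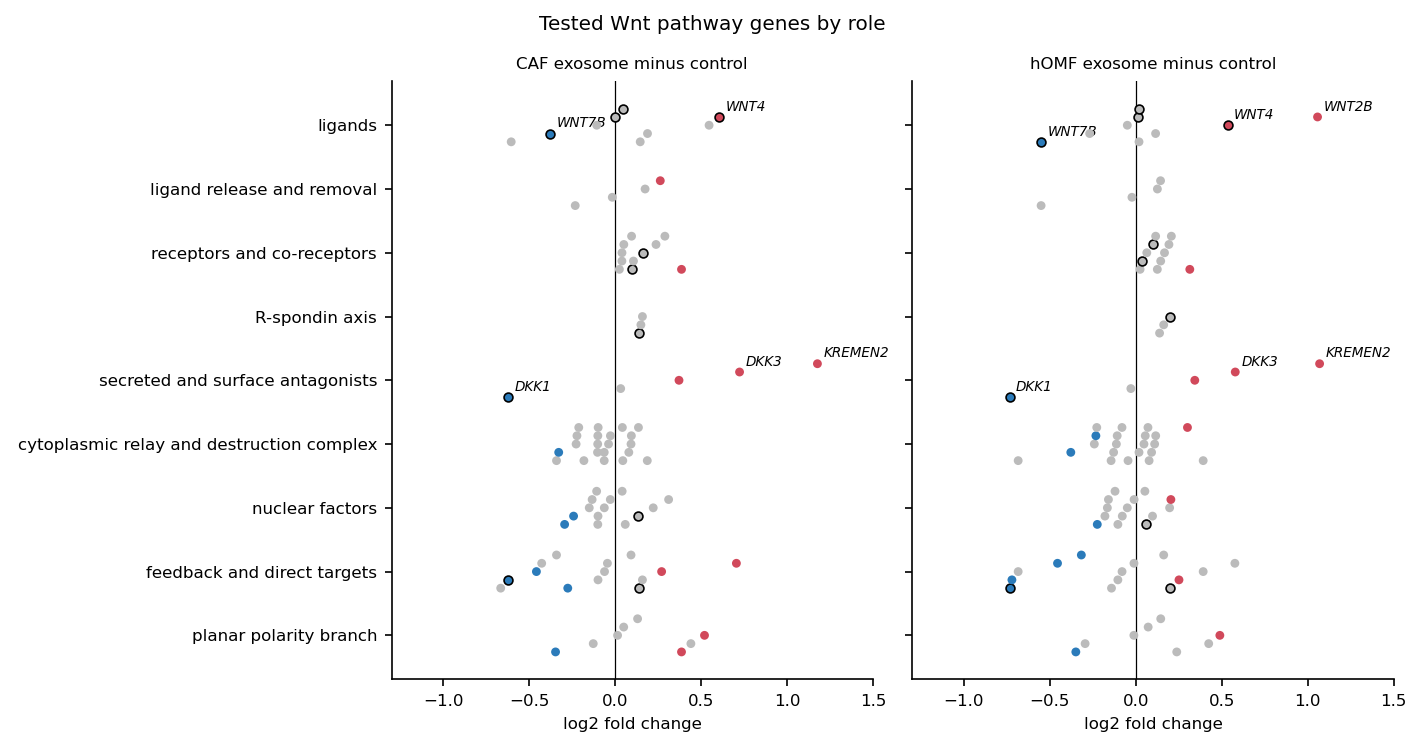
Log2 fold change of every tested Wnt gene by role, for CAF exosomes and hOMF exosomes minus control, with calls in colour (red higher, blue lower), members outlined and genes of 2 roles drawn in both rows. The antagonist row holds the widest spread, from DKK1 at -0.62 and -0.73 to KREMEN2 at 1.18 and 1.07.

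Genes whose pattern over the 9 libraries was most like that of a called member were found by the Pearson correlation of log2 CPM among 11337 genes. For DKK1 these were PPIF, the mitochondrial cyclophilin (r = 0.993), and CHORDC1, an HSP90 cochaperone (r = 0.986). PPIF fell by 0.74 with CAF exosomes and by 0.94 with hOMF exosomes. For WNT7B they were the splicing factor gene U2AF2 (r = 0.989) and NT5DC2 (r = 0.985), and for WNT4 they were NPIPB12 (r = 0.982), of a family of near-identical copies and so uncertain in its counts, and ICAM5 (r = 0.980). The libraries share the contrast between exosome and control groups, so these values describe likeness only. As these are bulk libraries, fewer cells carrying a transcript and less of it per cell cannot be told apart for any gene above.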

How the data were processed

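Poly(A) RNA of 9 Cal-27 libraries was sequenced in read pairs from dUTP strand-marked cDNA, per the labels' protocols. The deposited table gives expected counts, FPKM and TPM per gene and library. RSEM 1.2.8 and Bowtie2 2.2.5 are named in the submitters' processing notes, with the mouse build mm10, although the gene symbols and identifiers of the members are human; neither source names an annotation. Deposited TPM values were not used. Between 90.5% and 92% of the expected counts per library were whole (tolerance 0.001), and all were rounded. RSEM shares ambiguous reads between genes, as in the fractional counts of WNT7B.

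Genes were filtered with filterByExpr (minimum count 10, total 15), scaled by TMM and fitted in edgeR 4.0.16 (R 4.3.3) with glmQLFit and glmQLFTest, two-sided, on all 9 libraries with group as the only term (6 residual degrees of freedom) and Benjamini-Hochberg adjustment over all tested genes. Levels are TMM-scaled CPM, and genes were compared with each other by FPKM only. The rule for named genes took all 10 members, any listed Wnt gene called in a comparison, CTNNB1, GSK3B and APC, and the 2 genes most correlated with each called member (mean FPKM of 1 or more). KREMEN1, LRP5, AXIN1, ZNRF3, LGR4, WNT3, WNT6 and the feedback genes not called were named after their values were seen. The members and gene lists were chosen with earlier results of these data known. Gene positions are those of GENCODE v29 (GRCh38), joined by NCBI gene identifier, and promoter windows those of RefSeq. The fitting code was tested on simulated data. The alternatives were 20 in number and used DESeq2 1.42.0, limma 3.58.1, other scalings and filters, a replicate block and leaving out each library.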

Additional observations from a re-analysis of the deposited data

How the results depend on the processing

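Across 20 alternatives (19 where DESeq2 gave no adjusted p), 12 of 27 results on members kept direction and side of the threshold throughout. The calls among them were DKK1 with either exosome and WNT7B with hOMF exosomes. The rest, DKK1 between the exosome groups among them, were uncalled throughout. Calls were lost for 3: WNT7B with CAF exosomes (adjusted p 0.0061 to 0.0922 over its alternatives) and WNT4 with CAF (0.00848 to 0.0752) and hOMF exosomes (0.00858 to 0.173). Calls were gained for 2: FZD6 with CAF exosomes in limma on FPKM, and RNF43 with hOMF exosomes without TMM (0.25, adjusted p = 0.0435). Of 31 called results on other listed genes 14 kept their call throughout, namely PTK7, DKK3, KREMEN2, TPBG and MYC with either exosome and WNT2B, DVL2, GSK3A and CCND1 with hOMF exosomes. The alternatives for those genes were chosen after seeing the data.

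Signs changed for 10 results, all of them uncalled. WNT7A with CAF exosomes was 0.0244 without TMM and 0.0246 with upper-quartile factors, 0.00904 without the count filter, 0.00549 with at least 50 counts in 3 libraries, 0.0521 and 0.0542 on FPKM with a pseudocount of 1 and 0.1, and 0.0041 with the 2 groups alone. WNT10A between the exosome groups was -0.0151 and -0.0155 on FPKM, and LRP6 was 0.00548 there without the filter. Leaving out single libraries gave, for CAF exosomes minus control, -0.0466 to 0.0577 for WNT7A, -0.0347 to 0.10 for WNT10A and -0.00114 to 0.22 for LRP6. For hOMF exosomes it gave -0.0598 to 0.049 for WNT7A, -0.0445 to 0.0625 for WNT10A and -0.0495 to 0.14 for TCF7L2. Between the exosome groups it gave -0.0517 to 0.057 for WNT7A, -0.0567 to 0.0916 for WNT10A, -0.10 to 0.11 for LRP6 and -0.10 to 0.21 for WNT4.

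The genes called between the exosome groups numbered 2, against 32 with DESeq2, 0 without TMM, with limma-voom, with limma at either pseudocount and with the 2 groups alone, and 0 to 8 without single libraries. With CAF exosomes 1343 to 2389 genes were called without single libraries, fewest without CAF replicate 3 (1343), control replicate 2 (1389) and control replicate 3 (1442). With hOMF exosomes 1695 to 3096 were called, fewest without hOMF replicate 2. Members called ran from 1 to 3 with CAF exosomes, the 1 being DKK1 without control replicate 3, and other listed Wnt genes from 6 to 16 and 9 to 17. The cause of these shifts was not tested, beyond the smaller number of libraries. The share of calls that were higher went from 52.4% to 63.1% without TMM and 62.4% with upper-quartile factors for CAF exosomes, and from 50.9% to 67% and 61.7% for hOMF exosomes.

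Replicate numbers gave no sign of pairing: deviations of same-numbered libraries correlated between -0.154 and 0.14, and 0 of 9 libraries correlated best with their own number in both other groups. Deviations from means of 3 libraries are too constrained to exclude a pairing. With the replicate block 2101, 2718 and 2 genes were called in the 3 comparisons, and 3, 2 and 0 members, WNT4 with hOMF exosomes being the one lost (0.53, adjusted p = 0.0511). AXIN2 had too few counts to test, and 3 libraries a group limit the precision of every fold change.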
